A study of Mus musculus with 8 samples.

Results

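The extracellular matrix and collagen genes described here are 44 genes chosen by name from the 54532 genes counted in each library. All 44 had a row in the files, and 41 of them were among the 10691 genes that held enough reads to be tested. They were measured in quadriceps muscle of mice aged 3 months on a chow diet, as reads near the 3′ end of polyadenylated transcripts. The knockout group (MckCre Gpcpd1, 4 libraries) was homozygous for a floxed Gpcpd1 allele and carried Mck Cre, a Cre recombinase driven by the muscle creatine kinase promoter, which is active in muscle fibres. The control group (Control, 4 libraries) carried the same floxed alleles without Cre, so the presence of Cre and the loss of Gpcpd1 cannot be told apart. The labels do not say that each library came from a separate mouse and give neither sex nor litter, and p-values reflect only how far these 8 libraries vary.

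The matrix of skeletal muscle consists of an interstitial part, built from collagen fibrils, elastic fibres and proteoglycans, and a basement membrane that coats each fibre. Most interstitial components are made by fibroblasts and fibro-adipogenic progenitors between the fibres, whereas fibres and blood vessel cells contribute to the basement membrane. Mck Cre is therefore directed at a cell type that makes only a share of these transcripts, and RNA of whole muscle mixes all of them. In such bulk RNA, fewer cells of a type and less RNA per cell cannot be told apart.

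Library totals lay between 4806806 and 5405999 reads in the knockouts and between 4404116 and 5183079 reads in the controls. Gpcpd1, the targeted gene, had 30.4, 35.7, 35.9 and 38.6 CPM (the read count relative to library depth, with library totals scaled by TMM) in knockouts 1 to 4, against 158.5, 156.3, 134.7 and 149.4 CPM in controls 1 to 4 (log2 fold change -2.09, SE 0.10, edgeR adjusted p = 2.13e-13). Its 3′ reads need not cover the deleted part, so they check the transcript level and not the deletion. Of 10 muscle fibre markers 9 were tested, with a median log2 fold change of 0.26 and 7 of 9 values above 0. The myoglobin gene Mb (0.87, SE 0.12) rose in all 18 alternatives. The actin gene Acta1 (0.26, SE 0.09, edgeR adjusted p = 0.0495) rose with a call lost in 11 of 18. The fast myosin gene Myh4 (-0.31, SE 0.09) fell with a call lost in 1 of 18, the scaling to fibroblast markers (edgeR adjusted p = 0.488).

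Most matrix genes did not pass the test between genotypes, and 4 of the 6 that did belonged to the adhesive and matricellular class, of which 8 were tested. The classes were drawn with earlier results of these data known, so this share is a description and no result about the class. Of the 41 tested members, 4 fell in the knockouts (Aebp1, Fn1, Lox and Dcn) and 2 rose (Thbs4 and Ccn2) at an adjusted p of 0.05, and 35 did not pass the threshold. That is 9.76% lower and 4.88% higher, beside 6.8% lower and 8.87% higher among all 10691 genes tested, of which 15.7% were called in either direction. The libraries of the 2 genotypes did not overlap in 4 members, all lower in the knockouts, and in 0 with the knockouts above, beside 8.92% and 10.3% of all genes tested. The median log2 fold change was -0.06 over the 41 members and 0.008 over all genes tested, and 19 members had a value above 0 and 22 below. Summed over all 44 genes, matrix transcripts took 2370, 2209, 2298 and 2151 CPM in knockouts 1 to 4, against 2299, 2412, 2802 and 2591 CPM in controls 1 to 4. Control 1 lay within the knockouts, and the other controls lay above all of them. Genes with many reads weigh most in this sum, so it does not describe every class. Mean levels in knockouts and controls were 448.6 and 505.7 CPM for Sparc, 307 and 370.3 for Dcn, and 51.8 and 151.2 for Aebp1. The summed fibrillar collagens overlapped, at 184.9 to 235.8 CPM in knockouts and 165.2 to 224.8 CPM in controls. The count of lower members was 2 without knockout 3, and 6 without knockout 1. The count of higher members was 0 without knockout 2, 3 or 4 or without control 2 or 3, and 1 without knockout 1 or control 4.

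**Figure D1:**
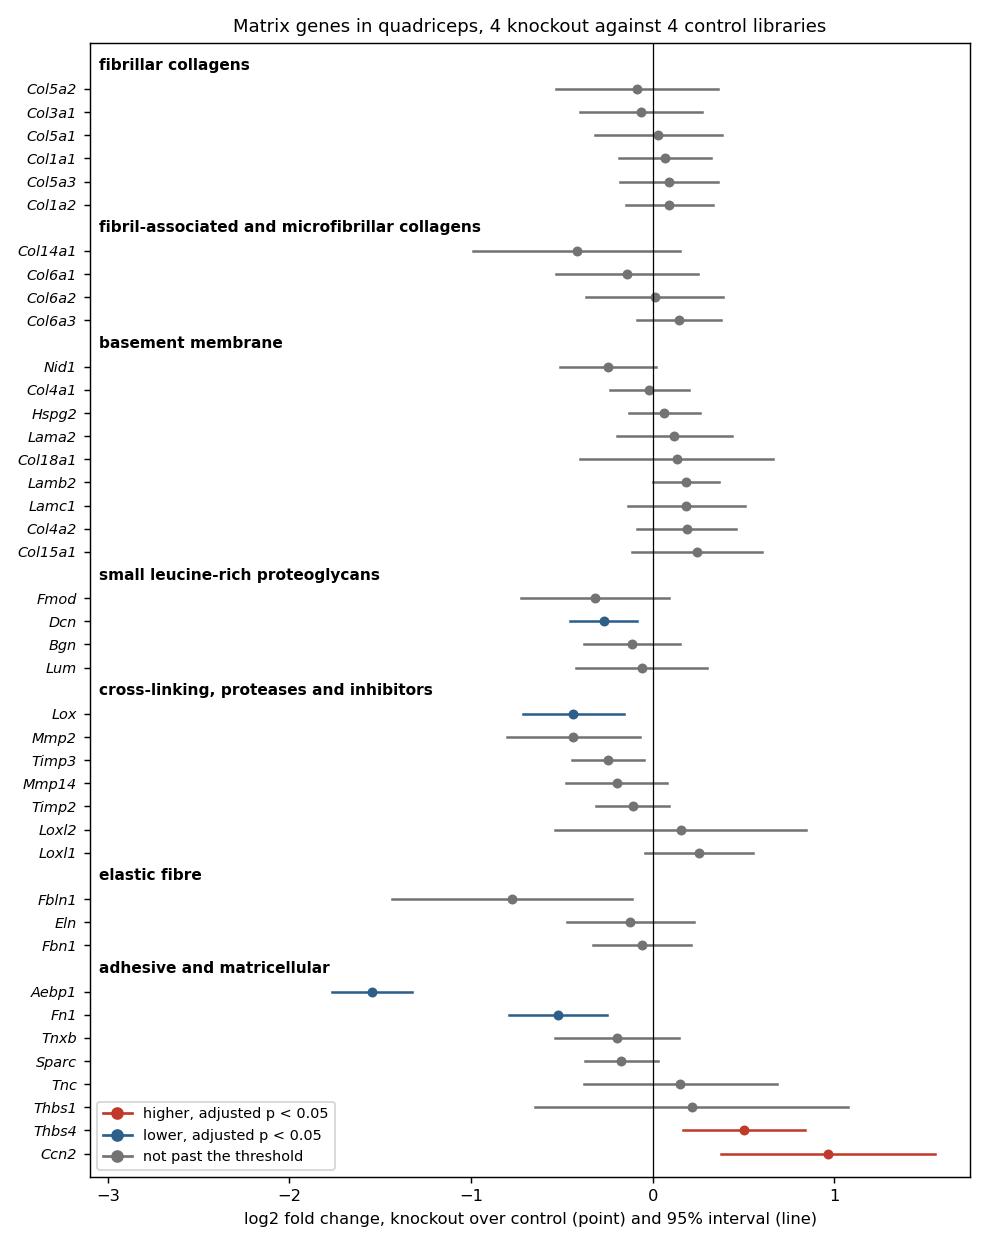
Log2 fold change, knockout over control, of the 41 tested matrix genes by class, each point with its 95% interval from 4 libraries a group. Aebp1 stands at -1.55, whereas the 6 fibrillar collagens all lie between -0.09 and 0.09.

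Because 35 of 41 members missed the threshold, the size of difference that the libraries still allow matters as much as the calls. For 26 of these 35 the 95% interval of the fold change lay wholly within a 1.5-fold change in either direction, and for 33 within a 2-fold change. The other 2 were Fbln1 and Thbs1, which had 120 and 77 reads in all 8 libraries together. The other 3 genes held too few reads for the test. The tissue inhibitor of metalloproteinases Timp1 had 3, 4, 5 and 4 reads in knockouts 1 to 4, against 1, 1, 2 and 3 reads in controls 1 to 4. The fibril-associated collagen gene Col12a1 had 25 reads over the 4 knockouts and 27 over the 4 controls, and the matricellular gene Postn (periostin) had 22 and 24. At these depths 3 reads correspond to 0.557 to 0.646 CPM, a floor that covers counting error only. Without the low-count filter the log2 fold changes had an SE of 0.47 for Col12a1, 0.50 for Postn and 0.73 for Timp1. Small differences in these genes were thus not detectable.

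The fibrillar collagens form the load-bearing fibrils of the interstitium. Type I collagen, encoded by Col1a1 and Col1a2, is the main component, type III (Col3a1) forms thinner fibrils, and type V (Col5a1, Col5a2, Col5a3) helps to start fibrils and limit their width. None of these 6 genes passed the threshold, and their median log2 fold change was 0.05. Col1a2, the most abundant by read number, had 78.6, 73.7, 101.6 and 89.6 CPM in knockouts 1 to 4, against 84.6, 62.6, 83.6 and 91.9 CPM in controls 1 to 4. The groups overlapped fully, with knockout 3 highest and control 2 lowest, and the log2 fold change was 0.09 with a 95% interval of -0.15 to 0.33. Col1a1 averaged 47.6 ± 3.29 CPM in knockouts and 45.4 ± 10.0 CPM in controls (SD, n = 4 each; log2 fold change 0.07, 95% interval -0.19 to 0.32). Col3a1 averaged 31.4 ± 6.98 CPM in knockouts and 32.9 ± 7.06 CPM in controls (log2 fold change -0.06, 95% interval -0.40 to 0.27). All 6 intervals lay within -0.53 and 0.38, inside a 1.5-fold change either way.

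The chains of type I collagen assemble into a mixed triple helix, and the balance of their transcripts overlapped between genotypes. The ratio of Col1a1 to Col1a2 reads was 0.579, 0.617, 0.516 and 0.526 in knockouts 1 to 4, against 0.427, 0.631, 0.703 and 0.513 in controls 1 to 4. Such ratios depend on where each transcript is polyadenylated and are read here only between libraries. Across 11 ratios between partner genes, chosen after the values had been seen, no exact two-sided permutation test passed a Benjamini-Hochberg adjustment (smallest adjusted p = 0.314), and 4 libraries against 4 cannot go below an unadjusted p of 0.0286.

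Collagens VI and XIV sit between the fibrils and the cell surface. Type VI collagen (Col6a1, Col6a2, Col6a3) forms beaded microfibrils near the basement membrane, and its mutation causes muscular dystrophy in humans, while type XIV (Col14a1) binds along fibrils. Col6a3 had 52.4, 64.7, 68.6 and 54.6 CPM in knockouts 1 to 4, against 51.0, 49.3, 66.8 and 50.02 CPM in controls 1 to 4. Control 3 reached the knockout range, and the log2 fold change was 0.15 with a 95% interval of -0.08 to 0.38. Col6a1 and Col6a2 had log2 fold changes of -0.14 and 0.01. Col14a1 averaged 3.502 ± 1.14 CPM in knockouts and 4.70 ± 1.32 CPM in controls, and its interval of -0.99 to 0.15 was the widest of the class.

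The basement membrane is a sheet of laminin and type IV collagen networks held together by nidogen and perlecan. All 9 genes of this class were tested and none passed the threshold, with a median log2 fold change of 0.13 and 7 of 9 values above 0. Hspg2, which encodes perlecan, was the most abundant at 96.4 ± 4.69 CPM in knockouts and 92.2 ± 11.9 CPM in controls (SD, n = 4 each; log2 fold change 0.06, 95% interval -0.13 to 0.26). Lamb2, the laminin beta 2 chain gene, had 90.7, 92.4, 79.2 and 85.3 CPM in knockouts 1 to 4, against 72.4, 82.9, 76.4 and 74.6 CPM in controls 1 to 4. Only knockout 3 fell among the controls, and the log2 fold change was 0.18 (SE 0.09, edgeR adjusted p = 0.177).

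Lama2, the laminin chain of the muscle fibre basement membrane whose loss causes a congenital dystrophy, averaged 13.1 ± 1.71 CPM in knockouts and 12.1 ± 1.16 CPM in controls. Its partner Lamc1 had a log2 fold change of 0.19. The type IV collagen genes Col4a1 and Col4a2, which share a head-to-head start and a few exon bases on chromosome 8, had log2 fold changes of -0.02 and 0.19. Nid1, which encodes nidogen 1, was the lowest of the class at -0.25 (SE 0.13, edgeR adjusted p = 0.211). Col15a1 stood at 0.24. Col18a1, the source of endostatin, stood at 0.13, and knockout 1 held 9.22 CPM against 4.48 to 5.02 CPM in the other 3 knockouts.

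The small leucine-rich proteoglycans bind collagen fibrils and set their spacing. All 4 had a log2 fold change below 0, and decorin (Dcn), by far the most abundant, fell. Dcn (GRCm38 chromosome 10, 97479609 to 97518143, plus strand) had 313.0, 330.9, 320.1 and 264.1 CPM in knockouts 1 to 4, against 341.6, 350.5, 407.2 and 381.9 CPM in controls 1 to 4. The groups did not overlap, although knockout 2 and control 1 were close. The log2 fold change was -0.27 (SE 0.09, 95% interval -0.45 to -0.09, edgeR adjusted p = 0.0387), so the knockout level was 0.83 of the control level. The call was lost without knockout 3 (edgeR adjusted p = 0.0571), knockout 4 (0.148), control 3 (0.125) or control 4 (0.0650). Biglycan (Bgn) averaged 101.1 ± 17.3 CPM in knockouts and 109.4 ± 18.9 CPM in controls. Lumican (Lum) and fibromodulin (Fmod) had log2 fold changes of -0.06 and -0.32, and Fmod passed the threshold without control 3 (edgeR adjusted p = 0.0315).

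Among enzymes that cross-link or cut the matrix, lysyl oxidase (Lox) fell. This secreted enzyme oxidises lysines of collagen and elastin so that the chains can be joined. Lox had 15.9, 16.04, 13.9 and 17.3 CPM in knockouts 1 to 4, against 24.1, 23.1, 19.4 and 18.9 CPM in controls 1 to 4. The highest knockout lay just under the lowest control, and the log2 fold change was -0.44 (SE 0.13, edgeR adjusted p = 0.0273). The call was lost without knockout 2 (edgeR adjusted p = 0.0546), knockout 3 (0.0967), control 1 (0.0904) or control 2 (0.0593), and with DESeq2 (0.0521). An antisense gene shares exon bases with Lox and was not analysed here, and the strand setting of the counting is not given. Its relative Loxl1 had 15.9, 16.2, 20.2 and 14.9 CPM in knockouts 1 to 4, against 12.7, 15.6, 14.1 and 14.1 CPM in controls 1 to 4, with a log2 fold change of 0.26 (SE 0.14, edgeR adjusted p = 0.257). Reads of Loxl1 per read of Lox were 1.00, 1.01, 1.45 and 0.864 in knockouts 1 to 4, against 0.527, 0.675, 0.727 and 0.744 in controls 1 to 4. These ratios did not overlap, yet the exact two-sided permutation p = 0.0286 became 0.314 when adjusted over the 11 ratios. Loxl2, another relative, had 99 reads in all 8 libraries together and a log2 fold change of 0.15 (SE 0.34, edgeR adjusted p = 0.813).

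None of the matrix metalloproteinases or their inhibitors passed the threshold. Mmp2, a gelatinase, had 15.3, 11.5, 9.48 and 7.25 CPM in knockouts 1 to 4, against 14.4, 15.4, 14.9 and 14.1 CPM in controls 1 to 4. Knockout 1 lay within the controls and the other 3 knockouts lay below them, and the log2 fold change was -0.44 (SE 0.18, edgeR adjusted p = 0.104), or -0.64 without knockout 1 (0.0111). Mmp14, the membrane-bound enzyme that activates the product of Mmp2, stood at -0.20. The inhibitor gene Timp2, the third most abundant member, averaged 312.7 ± 37.9 CPM in knockouts and 337.6 ± 39.1 CPM in controls. Timp3, an inhibitor that binds to the matrix, averaged 124.6 ± 8.23 CPM in knockouts and 147.6 ± 20.2 CPM in controls (log2 fold change -0.24, SE 0.10, edgeR adjusted p = 0.0851). It passed the threshold without knockout 1 (0.0486) or control 2 (0.0247).

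The 3 elastic fibre genes had log2 fold changes of -0.06 for Fbn1 (fibrillin 1), -0.12 for Eln (elastin) and -0.77 for Fbln1 (fibulin 1). Fbln1 was scarce, at 2.304, 2.48, 2.23 and 1.92 CPM in knockouts 1 to 4, against 1.72, 5.47, 4.503 and 3.57 CPM in controls 1 to 4. Control 1 lay below all knockouts and the other 3 controls above them. Its edgeR adjusted p was 0.108, and 0.0224 without control 1.

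The adhesive and matricellular class held the largest differences. These proteins bind collagen, cells or growth factors, and most are not structural fibres themselves. Aebp1 encodes a secreted collagen-binding protein with a carboxypeptidase-like domain, whose loss in humans causes a form of Ehlers-Danlos syndrome. Aebp1 (ENSMUSG00000020473, GRCm38 chromosome 11, 5861947 to 5872088, plus strand) had 58.4, 46.0, 49.4 and 53.3 CPM in knockouts 1 to 4, against 139.8, 127.9, 178.6 and 158.5 CPM in controls 1 to 4. In reads, these were 279, 241, 266 and 250 in knockouts and 649, 631, 912 and 754 in controls. All 4 controls lay far above all 4 knockouts. The log2 fold change was -1.55 (SE 0.11, 95% interval -1.77 to -1.33, edgeR adjusted p = 2.42e-10), so the knockout level was 0.342 of the control level. The fall passed the threshold in all 18 alternative analyses, with values between -1.63 and -1.37.

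Aebp1 was also low beside the collagens of the same library. For every 100 reads of the 6 fibrillar collagens, a scale chosen after the values had been seen, Aebp1 had 29.6, 24.9, 21.0 and 25.7 reads in knockouts 1 to 4, against 76.4, 77.4, 79.4 and 71.1 reads in controls 1 to 4. All controls again lay far above all knockouts. No gene of the annotation shares exon bases with Aebp1. The promoter windows of Aebp1, Thbs4 and Col1a2 are shown because they stand for a member that fell, one that rose and a collagen between them. Each runs from 250 bases before to 50 after the start in the RefSeq annotation of GRCm38.p6, which held a window for 29 of the 44 genes, and is written 5′ to 3′ on the strand of the gene. In the GENCODE annotation, which gave the gene coordinates, Aebp1 starts at 5861947, after its window ends at 5861915. Col1a2 starts there at 4504814, before its window begins at 4505368.
Aebp1 (chr11:5861616-5861915, plus strand): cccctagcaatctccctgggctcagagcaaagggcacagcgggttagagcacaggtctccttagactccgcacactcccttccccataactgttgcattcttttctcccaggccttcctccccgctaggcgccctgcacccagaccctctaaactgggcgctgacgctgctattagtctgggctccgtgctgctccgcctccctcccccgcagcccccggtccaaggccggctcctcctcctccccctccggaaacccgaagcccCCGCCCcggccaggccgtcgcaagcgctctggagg
Thbs4 (chr13:92794769-92795068, minus strand): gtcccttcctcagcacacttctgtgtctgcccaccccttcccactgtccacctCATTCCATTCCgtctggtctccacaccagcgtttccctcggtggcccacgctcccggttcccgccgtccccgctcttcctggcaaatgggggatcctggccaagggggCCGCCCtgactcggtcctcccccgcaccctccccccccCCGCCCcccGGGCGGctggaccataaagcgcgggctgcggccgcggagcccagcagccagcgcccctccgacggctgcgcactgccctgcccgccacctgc
Col1a2 (chr6:4505368-4505667, plus strand): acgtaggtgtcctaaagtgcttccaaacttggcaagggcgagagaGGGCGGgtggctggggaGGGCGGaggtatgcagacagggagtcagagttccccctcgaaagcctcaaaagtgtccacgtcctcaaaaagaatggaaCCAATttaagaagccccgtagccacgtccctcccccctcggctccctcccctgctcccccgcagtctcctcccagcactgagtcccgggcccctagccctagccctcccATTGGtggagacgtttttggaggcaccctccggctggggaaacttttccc
Capitals mark matches to 5 motifs searched on either strand. The GC box was spelled GGGCGG. The box bound by nuclear factor Y was spelled CCAAT. The box near many starts was spelled TATAAA. The motif of TEAD factors was spelled CATTCC. The motif of AP-1 was spelled TGANTCA. Aebp1 held 1 GC box and no match to the other 4 motifs. Thbs4 held 3 GC boxes and 2 TEAD motif matches that overlap by 1 base. Col1a2 held 2 GC boxes and 2 CCAAT boxes. Among all 32851 windows of this length, 35.7% held a GC box, 37.4% a CCAAT box, 13.6% a TATA box, 14.7% the TEAD motif and 7.81% the AP-1 motif. The matches describe the letters only.

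Fibronectin (Fn1), an adhesive glycoprotein that links integrins to collagen, fell as well. Fn1 (GRCm38 chromosome 1, 71585520 to 71653200, minus strand) had 24.3, 25.2, 27.1 and 21.8 CPM in knockouts 1 to 4, against 30.6, 34.1, 45.6 and 31.1 CPM in controls 1 to 4. The groups did not overlap, and control 3 was the highest. The log2 fold change was -0.52 (SE 0.13, 95% interval -0.79 to -0.25, edgeR adjusted p = 0.0065), a knockout level of 0.696 of the control level. Per 100 fibrillar collagen reads Fn1 had 10.5 to 13.6 reads in knockouts and 14.0 to 20.6 in controls, which did not overlap either. On this scale the other 4 called members overlapped between genotypes, Dcn with 127 to 179 reads in knockouts and 171 to 212 in controls, and Lox with 5.91 to 8.68 reads in knockouts and 8.49 to 14.0 in controls. Thbs4 had 16 to 21.2 reads in knockouts and 8.62 to 21.2 in controls, and Ccn2 had 2.65 to 4.86 reads in knockouts and 1.10 to 3.53 in controls. Apol7d, the antisense gene that shares exon bases with Fn1, had 1 read in all knockouts and 0 in all controls.

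Thrombospondin 4 (Thbs4), a matricellular protein of tendon and muscle, rose. Thbs4 (GRCm38 chromosome 13, 92751590 to 92794818, minus strand) had 34.2, 39.2, 37.7 and 39.5 CPM in knockouts 1 to 4, against 38.8, 22.5, 19.4 and 26.1 CPM in controls 1 to 4. Control 1 lay within the knockouts and the other 3 controls below them. The log2 fold change was 0.50 (SE 0.16, edgeR adjusted p = 0.0402). The call was lost without knockout 1 (edgeR adjusted p = 0.0517), 2 (0.0995), 3 (0.0875) or 4 (0.109), without control 2 (0.127), 3 (0.123) or 4 (0.120), with library totals alone (0.113) and with libraries thinned to the smallest library total (0.0619).

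Ccn2, also known as connective tissue growth factor and a target of TGF-beta and YAP signalling, rose. It had 5.24, 8.97, 10.6 and 8.11 CPM in knockouts 1 to 4, against 6.46, 1.82, 3.72 and 5.04 CPM in controls 1 to 4. Knockout 1 and control 1 overlapped. In reads these were 25, 47, 57 and 38 in knockouts and 30, 9, 19 and 24 in controls, and the log2 fold change was 0.96 (SE 0.28, edgeR adjusted p = 0.0227). The call was lost without knockout 2 (edgeR adjusted p = 0.0617), 3 (0.0850) or 4 (0.0549), without control 2 (0.0666) or 3 (0.0787) and with thinned libraries (0.0673). The gene Gm15270 on the other strand, which shares exon bases with Ccn2, had 2 reads in knockouts and 1 in controls.

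**Figure D2:**
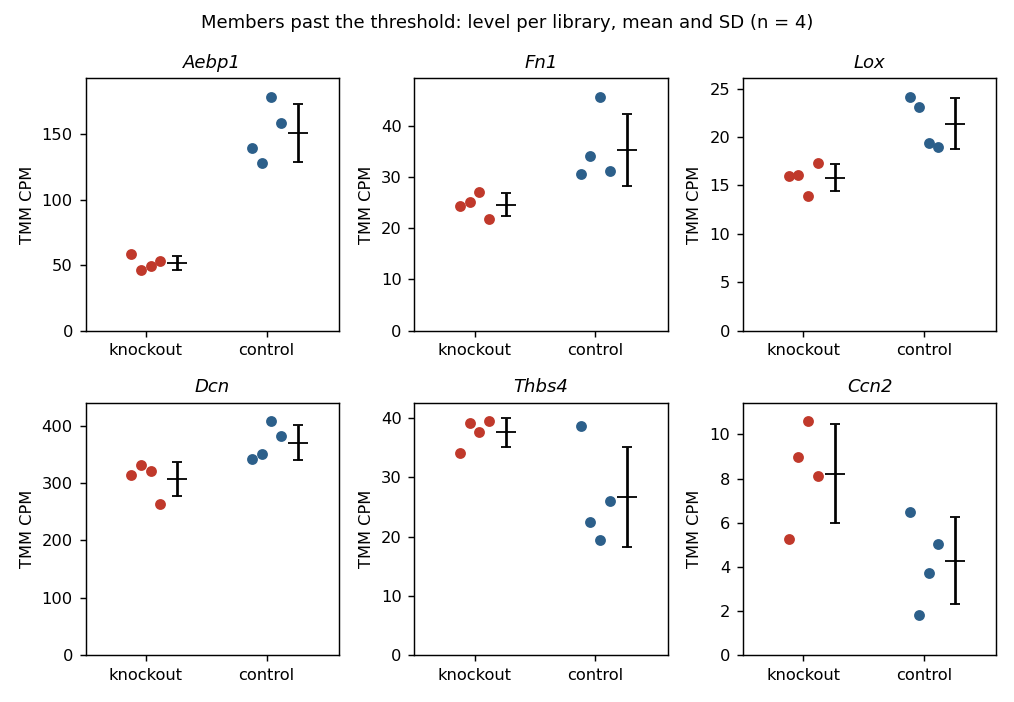
TMM CPM in each library for the 6 matrix genes past the threshold, knockouts left and controls right, with mean and SD (n = 4) beside the points. Aebp1, Fn1, Lox and Dcn do not overlap between groups, while for Thbs4 and Ccn2 control 1 lies among the knockouts.

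The remaining members of the class did not pass the threshold. Sparc, which encodes a collagen-binding protein that matures collagen fibrils, was the most abundant of all members. It had 472.6, 441.5, 415.6 and 464.6 CPM in knockouts 1 to 4, against 417.6, 481.6, 614.6 and 508.8 CPM in controls 1 to 4. Control 1 lay among the knockouts, and the log2 fold change was -0.17 (SE 0.10, edgeR adjusted p = 0.258). Tenascin X (Tnxb) averaged 13.5 ± 2.005 CPM in knockouts and 15.5 ± 3.31 CPM in controls. Tenascin C (Tnc) and thrombospondin 1 (Thbs1) had log2 fold changes of 0.15 and 0.22. Thbs1 varied widely within the knockouts, between 0.853 CPM in knockout 4 and 3.77 CPM in knockout 1.

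**Figure D3:**
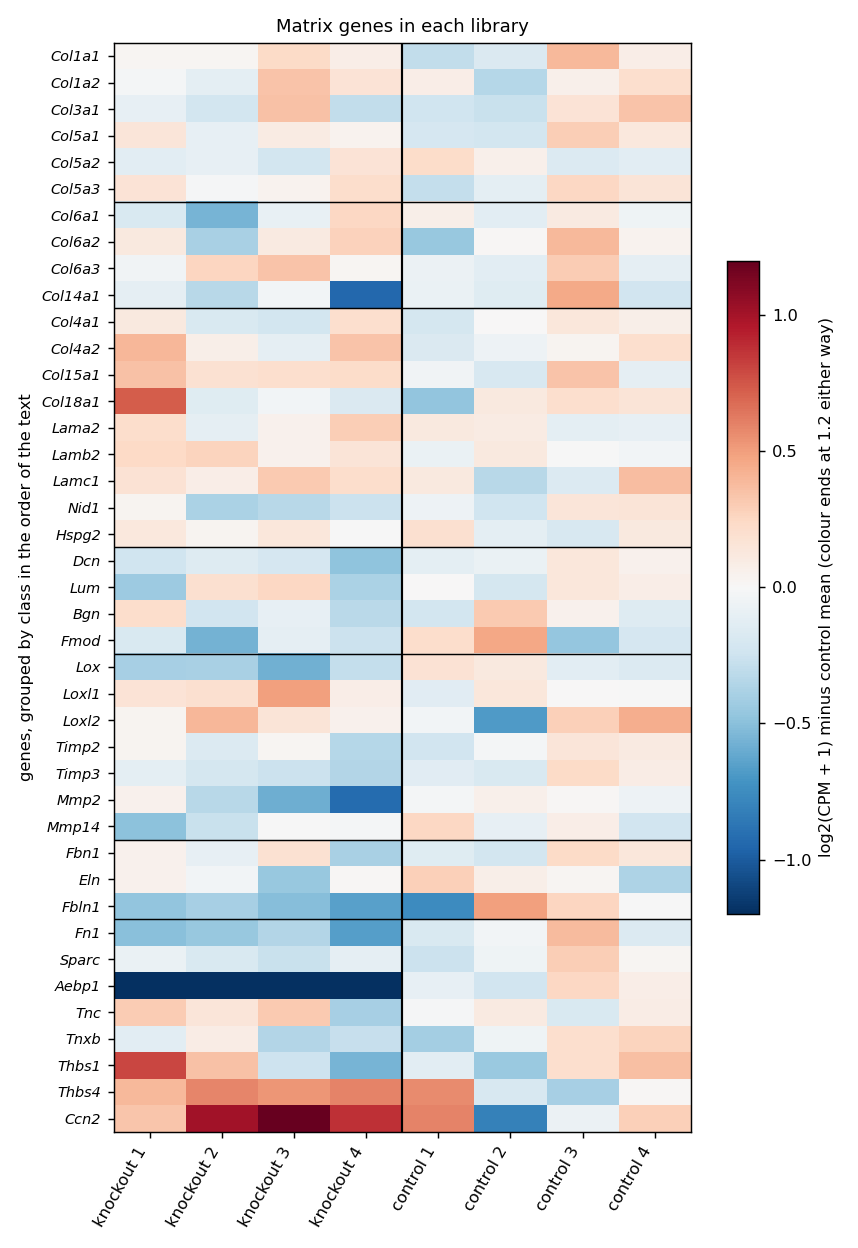
Each of the 41 tested matrix genes in each library as log2(CPM + 1) minus the control mean, knockouts left of the line and controls right of it. Aebp1 is the 1 row that is uniformly dark blue in the knockouts, and control 3 is the reddest control column.

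Libraries differed from each other in matrix content within a genotype. Control 3 was the highest control in 18 of the 41 tested members (43.9%), beside 20.4% of all genes tested. Knockout 4 was the lowest knockout in 15 (36.6%), beside 24.3% of all genes. The reverse was as marked, since knockout 3 was the highest knockout in 15 (36.6%), beside 23.2% of all genes. Controls 1 and 2 were each the lowest control in 15 (36.6%), beside 24.6% and 25.8%. The median member stood at 0.04, -0.11, -0.01 and -0.02 in knockouts 1 to 4 with -0.08, -0.10, 0.14 and 0.07 for controls 1 to 4, as log2(CPM + 1) minus the control mean. The spread among controls thus exceeded the difference between group medians. Without control 3 the falls of Aebp1, Fn1 and Lox passed the threshold and that of Dcn did not.

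Markers of the cells that make most interstitial matrix mostly did not pass the threshold. Of 16 fibroblast and progenitor markers 14 were tested, of which 2 fell, 1 rose and 11 were not called, beside 6.8% lower and 8.87% higher among all genes tested. Their median log2 fold change was -0.28, and 12 of 14 values lay below 0. The most abundant, Gsn (gelsolin), which muscle fibres express as well, averaged 500.4 ± 87.4 CPM in knockouts and 598.8 ± 67.8 CPM in controls (edgeR adjusted p = 0.139). Pi16, a marker of progenitors around vessels, fell (-0.59, SE 0.11, edgeR adjusted p = 0.000553), as did Clec3b (-0.32, SE 0.11, edgeR adjusted p = 0.0484), whose call was lost in 10 of 18 alternatives. Smoc2, a matrix-bound calcium-binding protein gene, rose (0.76, SE 0.13, edgeR adjusted p = 0.000345). The receptor gene Pdgfra, which defines these cells, averaged 5.36 CPM in knockouts and 7.41 CPM in controls (edgeR adjusted p = 0.163), and Tcf21 had no reads. Clec3b, Pdgfra and Tcf21 were picked out after their values had been seen. The summed level of the list was 724 to 951 CPM in knockouts and 898 to 1109 CPM in controls, which overlapped.

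The median marker of this list stood at -0.11, -0.22, -0.26 and -0.36 in knockouts 1 to 4 with -0.07, -0.07, 0.21 and 0.10 for controls 1 to 4, and no knockout reached the lowest control. When libraries were scaled to these 14 markers, an alternative added after the data had been seen, the median over all genes moved to 0.172. Col8a1, Dpt, Mfap5 and Smoc2 among them are matrix genes, and Smoc2, Pi16 and Clec3b were called themselves. Genotype differences thus partly set this scale, and the SE of Dcn was 0.14 on it, against 0.09 in the main analysis. On that scale Aebp1 still fell (log2 fold change -1.37), whereas Fn1 (-0.35, edgeR adjusted p = 0.130), Lox (-0.28, 0.301) and Dcn (-0.10, 0.680) did not pass the threshold, and Thbs4 and Ccn2 rose. Tendon cell markers, of which 6 of 10 were tested, had 0 calls, a median of -0.27 and summed levels of 59.1 to 70.3 CPM in knockouts and 57.6 to 114.1 CPM in controls. These sums include the immediate-early gene Egr1, which is not specific to tendon and had 13.4 to 37.4 CPM in knockouts and 5.60 to 77.5 CPM in controls, highest in control 3. Endothelial markers had 0 of 14 called and a median of -0.04, and smooth muscle and pericyte markers 0 of 10 and -0.10. Macrophage markers had 3 of 8 lower, a median of -0.49 and sums of 66.8 to 110.9 CPM in knockouts and 93.7 to 154.9 CPM in controls. Cd163 (-0.75) and C1qb (-0.83) had the lowest p of these, and the call of the third, Csf1r (-0.59, edgeR adjusted p = 0.0392), was lost in 8 of 18 alternatives. Of 6 adipocyte markers 1 rose, Car3, which muscle fibres also express, at 10900 CPM in knockouts and 3219 CPM in controls, and the other 5, Adipoq and Plin1 among them, were not called. Schwann cell markers had 0 of 6, satellite cell markers 0 of 4 and red blood cell markers 0 of 5 called. All these counts stand beside 6.8% lower and 8.87% higher among all genes tested, a share at which short lists can hold 0 calls. The part of other cell types in the matrix results beyond these values was not tested.

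**Figure D4:**
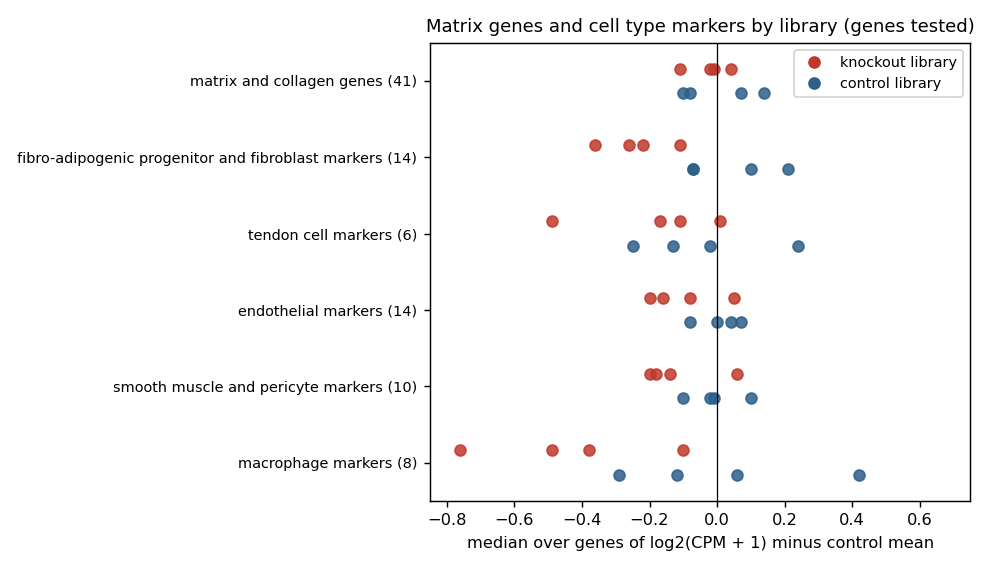
Median over the tested genes of each list of log2(CPM + 1) minus the control mean, with 1 point per library and knockouts above controls in each row. The matrix genes overlap between groups. The fibroblast and progenitor markers do not, although knockout 1 at -0.11 lies close to controls 1 and 2 at -0.07.

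Other genes of the matrix were tested as 6 lists, whose counts stand beside the 15.7% of all genes tested that were called in either direction. Some of these genes are also cell type markers above, so the rise of Smoc2 is counted in both places. In collagen synthesis and processing 1 of 19 tested genes fell, Mia3, which helps to export collagen from the endoplasmic reticulum (-0.35, SE 0.08, edgeR adjusted p = 0.00468), and 0 rose. Of 8 other tested collagens 1 rose, Col22a1, a collagen of the muscle-tendon junction. Col22a1 had 18.4, 20.8, 18.2 and 20.5 CPM in knockouts 1 to 4, against 9.91, 11.96, 7.05 and 12.6 CPM in controls 1 to 4 (log2 fold change 0.91, SE 0.16, edgeR adjusted p = 0.000286). Of 37 other glycoproteins and proteoglycans 2 rose, Smoc2 and fibulin 2 (Fbln2, 0.66, SE 0.15), and 2 fell, Ecm1 (-0.63, SE 0.20) and Tgfbi (-0.46, SE 0.16). The falls of Ecm1 and Tgfbi were not called in 7 and 10 of 18 alternatives.

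Of 20 other proteases, inhibitors and oxidases 2 fell and 1 rose. Htra1, a secreted serine protease that cuts matrix proteins, had 10.9, 13.9, 13.2 and 10.7 CPM in knockouts 1 to 4, against 25.0, 29.4, 27.6 and 22.3 CPM in controls 1 to 4. All controls lay above all knockouts, and the log2 fold change was -1.09 (SE 0.14, edgeR adjusted p = 4.98e-06). Serpine2, a serine protease inhibitor gene, fell (-0.36, SE 0.08) and Adamts15, a proteoglycan-cutting protease gene, rose (0.81, SE 0.25). The Adamts15 call was lost in 5 of 17 alternatives.

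Among 29 tested matrix receptors and their cytoplasmic partners, 3 fell and 1 rose. Ddr1, a receptor tyrosine kinase that binds collagen, fell (-0.54, SE 0.12, edgeR adjusted p = 0.00245), as did the integrin gene Itgav (-0.50, SE 0.15) and the talin gene Tln2 (-0.31, SE 0.09), while the adaptor gene Lims1 rose (0.49, SE 0.15). In TGF-beta signalling, a main inducer of matrix genes, 3 of 26 tested genes fell and 1 rose, and 20 had a log2 fold change below 0. Pmepa1, a target and inhibitor of the pathway, had 56.8, 38.6, 49.0 and 39.9 CPM in knockouts 1 to 4, against 75.8, 76.8, 68.7 and 86.8 CPM in controls 1 to 4 (log2 fold change -0.74, SE 0.11, edgeR adjusted p = 5.43e-05). The signal transducer gene Smad2 (-0.87, SE 0.21) and the receptor gene Bmpr2 (-0.42, SE 0.09) also fell, and the ligand gene Tgfb2 rose (0.30, SE 0.09). The calls of Itgav, Lims1 and Tgfb2 were lost in 4, 5 and 7 of 18 alternatives, and those of Pmepa1, Smad2, Htra1, Col22a1, Fbln2 and Smoc2 in none of 18. Scaling to fibroblast markers ended the calls of Ddr1 (edgeR adjusted p = 0.0779), Bmpr2 (0.219), Mia3 (0.374), Serpine2 (0.386) and Tln2 (0.550), and that of Tln2 was also lost without control 3 (0.0554).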

How the data were processed

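Quadriceps RNA was sequenced with the QuantSeq FWD kit, which reads near 3′ ends, so longer transcripts do not give more reads, per the labels' protocols. The authors deposited a table of raw counts for each library, with Ensembl IDs, per the file headers. GRCm38 (mm10), Bowtie2 2.3.4.1 and featureCounts with Subread 1.6.2 are listed in the submitters' processing notes. The annotation release, strand setting and handling of reads with several matches are not known here. Of 54532 gene IDs, 54409 were named from GENCODE M21.

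Genotype labels set the groups. Replicate numbers follow accession order and pair no libraries. Counts were filtered with filterByExpr (minimum count 10, minimum total 15), scaled by TMM and tested with the robust quasi-likelihood F test of edgeR 4.0.16 in R 4.3.3, with Benjamini-Hochberg adjustment over 10691 genes and a threshold of 0.05. SE was taken from the log2 fold change and F, and intervals are 95%. Between libraries of the same genotype the chi-square of read counts per degree of freedom was at least 2.33, so no library was a duplicate. The test was checked on simulated counts. Alternatives used DESeq2 1.42.0, limma 3.58.1 (voom), other scalings and filters, thinning, and leaving out each library.

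The 44 genes, their classes and the other lists were chosen with earlier results of these data known. All 44 genes were described, and of the other lists up to 4 changed genes of lowest p, or for marker lists up to 2 and the most abundant one. The markers Acta1, Csf1r, Egr1, Adipoq, Plin1, Clec3b, Pdgfra and Tcf21 were named outside this rule.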

Additional observations from a re-analysis of the deposited data

Results flagged for a closer look

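Over 90 groups of 4 libraries (the 44 matrix genes and Gpcpd1 in each genotype), 3 held a library far from the other 3, and about 1 in 20 does so by chance. Col6a3 had 66.8 CPM in control 3, against 49.3 to 51.0 CPM in the other controls. Col18a1 had 9.22 CPM in knockout 1, against 4.48 to 5.02 CPM in the other knockouts, and 3.45 CPM in control 1, against 5.68 to 6.07 CPM in the other controls.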

How the results depend on the processing

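The falls of Aebp1 and Gpcpd1 passed the threshold in all 18 alternatives, that of Fn1 in 17, of Dcn in 13 and of Lox in 12, and the rises of Ccn2 and Thbs4 in 12 and 9. No called gene changed direction. The count of higher members, 2 in the main analysis, was 1 with library totals alone and 0 with libraries thinned to the smallest total, and 0 to 2 when 1 library was left out. The count of lower members, 4 in the main analysis, was 2 to 6 when 1 library was left out. When libraries were scaled to fibroblast markers, a choice made after the data were seen, 1 member was lower, and of all genes 204 were lower and 1508 higher, so that 88.1% of calls were higher, against 56.6% in the main analysis, and the cause was not tested. Among members not called in the main analysis, Timp3 was lower with library totals alone (edgeR adjusted p = 0.0464) and Fmod without a low-count filter (0.0303). With no low-count filter Col12a1, Timp1 and Postn could be tested and did not pass the threshold. No paired analysis was possible because the labels give no number shared between the genotypes. Depth limits what can be said of members under about 5 CPM, such as Thbs1, Fbln1, Loxl2, Timp1 and Postn.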
